A study of Mus musculus with 8 samples.

Results

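The 10 genes described here encode proteins that bind mRNA, or bind such proteins, and control translation near synapses. They are Fmr1, Fxr1 and Fxr2 of the fragile X family, the FMRP partners Cyfip1 and Cyfip2, the cytoplasmic polyadenylation element binding proteins Cpeb1, Cpeb2, Cpeb3 and Cpeb4, and Caprin1. They were chosen by symbol and each matched 1 of the 56576 genes in the deposited table. All 10 were among the 31171 genes tested, whose mean normalized count reached 10 or more in 1 genotype or both. A normalized count is a gene's read count divided by a scaling factor of its library.

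Ribosome-associated RNA was sequenced from cortical synaptosomes, which are pinched-off synaptic terminals, at postnatal day 15. The 4 control libraries came from Lhx6-Cre;ErbB4+/+;Rpl22HA/HA mice and the 4 mutant libraries from Lhx6-Cre;ErbB4F/F;Rpl22HA/HA mice, so both genotypes carry the Cre and the tagged ribosomal protein. Lhx6-Cre acts in interneurons that arise in the medial ganglionic eminence (MGE), and it both tags their ribosomes and removes the floxed ErbB4 receptor. It recombines in parvalbumin and somatostatin interneurons alike, so the libraries do not separate these classes. The study's methods call the replicates separate samples from different brains and litters, and both sexes were used.

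The fragile X proteins bind mRNA and are best known for holding translation down until a synapse is active, and loss of FMRP causes fragile X syndrome. CYFIP proteins link FMRP to the cap-binding factor and also sit in the WAVE complex, which drives actin branching in spines. CPEB proteins bind a U-rich element in the 3′ untranslated region and change the length of the poly(A) tail, and Caprin1 is a scaffold of neuronal RNA granules with the G3BP proteins.

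Read totals on genes ran from 51010687 to 80226984 per library. Erbb4 had a mean of 3589 ± 1614 normalized counts in controls and 1410 ± 321 in mutants (SD, n = 4 each). It met the thresholds that the study used, an unadjusted p ≤ 0.05 and a fold change ≥ 1.5, as a lower gene, at a log2 fold change of -1.25 (limma adjusted p = 0.58). At 1640, Erbb4 in the library labelled control replicate 1 was under its 1711 and 1648 in mutant replicates 2 and 3, which goes against that label. Results that rest on this library are given with and without it. The log2 fold changes of Tsc2, the tagged Rpl22 and the marker Lhx6 were 0.44, -0.47 and -0.69, and none of these met the thresholds. None of the markers of MGE interneurons was at 0 in any group, and all 12 had log2 fold changes below 0 (median -0.93, with 3 called lower). Their summed level ran from 142500 to 761700 normalized counts in controls and from 59110 to 323300 in mutants. In bulk samples like these, fewer cells of a type and less RNA per cell cannot be told apart. Markers of cells other than MGE interneurons were in the pulldown too. The summed excitatory neuron markers ran from 101500 to 135200 normalized counts in controls and from 97880 to 120900 in mutants. The values below are those of the whole pulldown, and the part of interneurons in them was not tested.

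CPEB proteins act through a short element in mRNA, written TTTTAT or TTTTAAT in DNA letters, so the ends of the members' own transcripts were searched for it. The longest coding transcript of each gene in GENCODE M21 (mm10) was used, on its sense strand only. Cpeb2 carried 24 of these elements in its 3′ untranslated region of 3778 bases, or 6.35 per kb, against 1.34 per kb over all 16290 coding genes whose 3′ untranslated region has at least 300 bases. Of those genes, 99.1% had a lower density than Cpeb2 and 95.5% a lower density than Cpeb4, which carried 17 elements. In the last 300 bases of the transcript, 35.97% of all these genes held an element, and Fmr1, Cyfip1, Cpeb1, Cpeb2, Cpeb3 and Cpeb4 did so among the members. Fxr2 had none in its whole 3′ untranslated region of 598 bases. To show what a CPEB protein could meet there, the site nearest to the transcript end is printed for each member that holds one in this window, with 2 further ones for Cpeb2, which has 5 there, a pair of them overlapping. Each is a 30-base stretch written 5′ to 3′ in the direction of the gene, with the element in capitals.
Fmr1, chrX:68717917-68717946, plus strand: ctagatgtaaatTTTTATtaaaaagttgca
Cyfip1, chr7:55932573-55932602, plus strand: tcacaaatgtacaTTTTAATgttcatcacc
Cpeb1, chr7:81347256-81347285, minus strand: ttgacttttctTTTTAATttaacgattact
Cpeb2, chr5:43289554-43289583, plus strand: taatttagtttaTTTTATtgttatcttcca
Cpeb2, chr5:43289494-43289523, plus strand: gagaacccatgcTTTTATggacactaggta
Cpeb2, chr5:43289459-43289488, plus strand: gttaaagccgttTTTTATttttttctaaat
Cpeb3, chr19:37021506-37021535, minus strand: ggaataaattaaTTTTATgatgctaattct
Cpeb4, chr11:31935406-31935435, plus strand: gggtaattcattTTTTATtaaagtcatttt
The printed sites of Cpeb1 and Cyfip1 hold the longer form of the element and those of the others the shorter form. Over the whole 3′ untranslated region, Cpeb1, Cyfip1, Cpeb2 and Cpeb4 hold both forms. The element is a match of letters, and no binding was measured.

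In control libraries the levels fell into an upper group of Cyfip2, Cyfip1, Fxr2 and Caprin1 and a lower group of the other 6 genes. Levels between genes are compared here per kb of the longest coding transcript, which is an approximation because the reads were counted on constitutive regions whose length the table does not give. Cyfip2 had 3826 ± 1119 normalized counts per kb (SD, n = 4), Cyfip1 had 3493 ± 505, Fxr2 had 2654 ± 582 and Caprin1 had 1422 ± 253. Fmr1 followed with 247 ± 60.7 normalized counts per kb (SD, n = 4), Fxr1 with 182 ± 49.8 and Cpeb1 with 119 ± 11.8. Cpeb2 had 47.2 ± 37.6 normalized counts per kb (SD, n = 4), Cpeb3 had 38.1 ± 22.4 and Cpeb4 had 36.6 ± 10.5. Cyfip2 stood above 93.6% of the 15180 tested genes with a transcript length, and Cpeb4 above 16.2%.

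Some neighbours in this order did not differ beyond their spread. Cyfip2 was above Cyfip1 in 4 of the 8 libraries and Cpeb3 above Cpeb4 in 3 of 8, so neither pair has a settled order. The control ranges of Cyfip1 and Fxr2, of Fmr1 and Fxr1, and of Cpeb2 and Cpeb3 overlapped. Within libraries, however, Cyfip1 was above Fxr2 in 8 of 8, Fmr1 above Fxr1 in 7 of 8 and Cpeb2 above Cpeb3 in 7 of 8. The control ranges of Fxr2 and Caprin1 did not overlap, nor did those of Caprin1 and Fmr1, and in both pairs the order held in 8 of 8 libraries. Within the fragile X family, Fxr2 was thus the member with the highest level per kb in the pulldown.

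**Figure D1:**
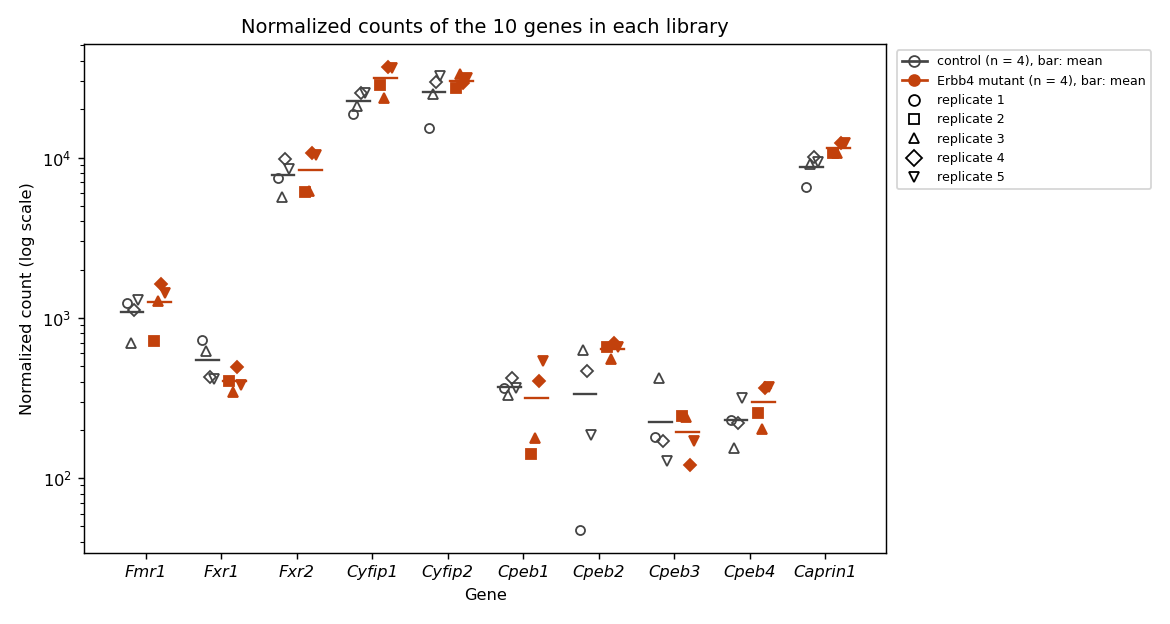
Normalized count (log scale) of each of the 10 genes in each library, with open grey symbols for controls, filled orange symbols for mutants, a symbol shape for each replicate number and a bar at the mean of 4. Only Caprin1 has all 4 mutants above all 4 controls, and Cpeb2 has 3 controls below every mutant, the lowest of them at 47.7 in the library labelled control replicate 1.

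The comparison of genotypes asks whether the loss of ErbB4 goes with a change in the mRNAs of these regulators in the pulldown. Of the 10 genes, Cpeb2 alone met these thresholds (was called), and it was higher in mutants. Among all genes tested, 7.15% met them, 3.98% as higher and 3.17% as lower genes, so 1 of 10 is close to this background. At an adjusted p under 0.05 from limma, 0 of the 10 passed, beside 0.0449% of all genes as lower and 0 as higher genes. Without a fold threshold, 1 of the 10 was at or under an unadjusted p of 0.05, beside 3.77% of all genes as lower and 4.56% as higher genes. The log2 fold changes ran from -0.44 to 1.49 with a median of 0.24, beside a median of 0.06 over all genes tested, and 7 of the 10 were above 0.

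**Figure D2:**
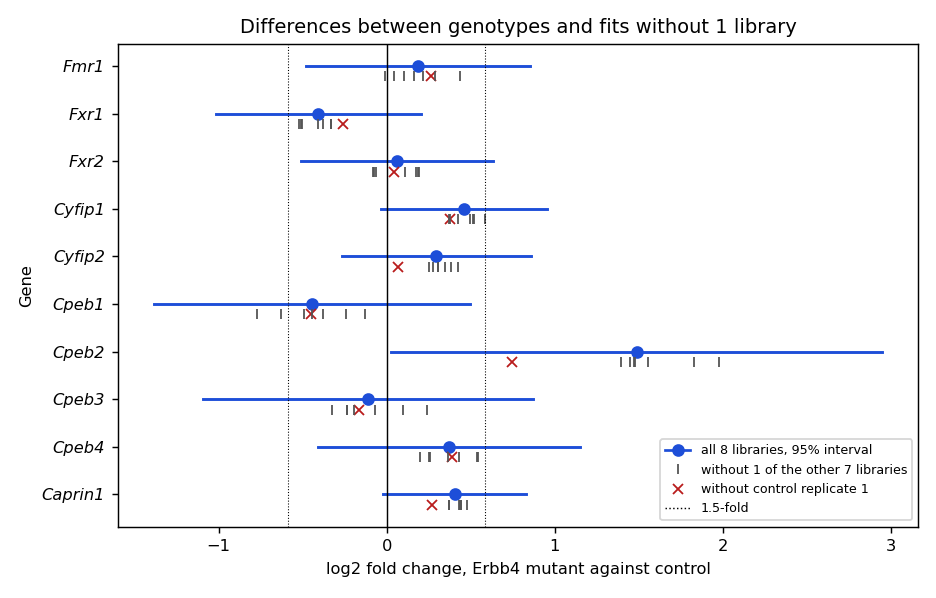
The log2 fold change of each gene (mutant against control) with its 95% interval from limma as a blue point and line, and below it the values obtained when each library in turn was left out. The interval of Cpeb2 runs from 0.03 to 2.95 and is the only one above 0, and without the library labelled control replicate 1 (red cross) its value is 0.75.

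Fmr1 encodes FMRP and lies on chromosome X from 68678539 to 68717963 of mm10. Its normalized counts were 1231, 701, 1117 and 1297 in control replicates 1, 3, 4 and 5, and 715, 1265, 1633 and 1429 in mutant replicates 2, 3, 4 and 5. The groups overlapped over most of their range, with 1 low library in each. Fmr1 had a fitted log2 fold change of 0.19 (standard error 0.30, 95% interval -0.48 to 0.86, limma adjusted p = 0.84). Adjusted p-values follow Benjamini and Hochberg over all genes tested. A 2-fold change either way lies outside this interval, while a 1.5-fold rise lies inside it.

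Fxr1 (chromosome 3, 34020079 to 34076000) and Fxr2 (chromosome 11, 69632957 to 69653297) encode the autosomal relatives of FMRP. Fxr1 had 724, 620.0, 427 and 418 normalized counts in control replicates 1, 3, 4 and 5, and 402, 345, 491 and 381 in the mutants in the order given above. Control replicates 1 and 3 were above every mutant, and the other controls were among them. Its log2 fold change was -0.41 (standard error 0.28, 95% interval -1.02 to 0.21), and -0.26 without the library labelled control replicate 1. Fxr2 had 7415, 5701, 9773 and 8439 normalized counts in controls and 6099, 6163, 10636 and 10353 in mutants. Mutant replicates 4 and 5 were the highest of all 8 libraries for Fxr2, and mutant replicates 2 and 3 were below 3 of the 4 controls. Its log2 fold change of 0.06 (standard error 0.26) was within the spread of the libraries.

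Cyfip1 (chromosome 7, 55842026 to 55932633) and Cyfip2 (chromosome 11, 46193850 to 46312860) had the highest levels of the 10 genes. Cyfip1 had 18717, 20840.3, 25126 and 25290.1 normalized counts in control replicates 1, 3, 4 and 5, and 28366, 23485, 36656 and 36283 in mutant replicates 2, 3, 4 and 5. Mutant replicate 3 lay among the controls and the other 3 mutants above all of them. For Cyfip1 the log2 fold change was 0.46 (standard error 0.22, 95% interval -0.03 to 0.95), with an unadjusted limma p of 0.065 and an adjusted p of 0.58, so Cyfip1 did not meet the thresholds. It met them with quantile normalization (log2 fold change 0.65, where 4.26% of all genes were called higher) and without mutant replicate 3 (0.59). For the latter fit the share over all genes was not computed. Without the library labelled control replicate 1 the log2 fold change of Cyfip1 was 0.37. Leaving out mutant replicates 4 and 5 in turn gave 0.37 and 0.38, and Cyfip1 was not called in any of these fits.

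Cyfip2 had 15213, 25051, 29450.0 and 32199 normalized counts in controls and 26982, 33006, 29244 and 31410.3 in mutants. The library labelled control replicate 1 was far below the rest, and the other 3 controls overlapped with the mutants. The fit put Cyfip2 at 0.29 on the log2 scale (standard error 0.26), and at 0.07 without that library.

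Among the CPEB genes, Cpeb2 (chromosome 5, 43233253 to 43289724) showed the largest log2 fold change of the 10 genes. Its normalized counts were 47.7, 633, 464 and 187 in control replicates 1, 3, 4 and 5, and 663, 553, 692 and 655 in mutant replicates 2, 3, 4 and 5. Controls spread more than 10-fold, from 35 reads in the library labelled control replicate 1 to 617 reads in control replicate 3, while the mutants stayed close together. Control replicate 3 was above mutant replicate 3, and the other 3 controls were below every mutant.

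Cpeb2 had a fitted log2 fold change of 1.49 (standard error 0.66, 95% interval 0.03 to 2.95), with an unadjusted limma p of 0.047 and an adjusted p of 0.58. The two-sided exact permutation test of the log2 means had p = 0.057, and 4 libraries against 4 can give no less than 0.029. When the library labelled control replicate 1 was left out, the estimate was 0.75 and Cpeb2 was not called, while 2.79% of all genes were called higher. The call was also lost without control replicate 5 (log2 fold change 1.39) and without each of mutant replicates 2, 3, 4 and 5 in turn (1.45 to 1.56). It held without control replicate 3 (1.98) and without control replicate 4 (1.83).

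Cpeb1 (chromosome 7, 81347027 to 81454762), the founding member of the family, spread in the opposite way, with close controls and scattered mutants. It had 365, 332, 420.4 and 366 normalized counts in controls, and 141, 179, 401 and 537 in mutant replicates 2, 3, 4 and 5. Mutant replicates 2 and 3 were below every control, replicate 4 was among them and replicate 5 above them. Its log2 fold change was -0.44 (standard error 0.43, 95% interval -1.38 to 0.50), so a fall by more than 2-fold and a rise of 1.4-fold both lie inside the interval. It ran from -0.77 without mutant replicate 5 to -0.13 without mutant replicate 2.

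Cpeb3 (chromosome 19, 37021291 to 37207509) had 180.0, 419.8, 170.2 and 129 normalized counts in controls and 243, 241, 121 and 172 in mutants. Control replicate 3 was the highest library, and the other 3 controls were within the range of the mutants. For Cpeb3 the fit gave -0.11 on the log2 scale (standard error 0.45), and 0.24 without control replicate 3. Cpeb4 (chromosome 11, 31870878 to 31935634) had 232, 155, 220.2 and 317 normalized counts in controls and 256, 203, 365 and 372 in mutants. Mutant replicates 4 and 5 were above all controls, and the groups overlapped otherwise. Its log2 fold change was 0.37 (standard error 0.35, 95% interval -0.41 to 1.15), and 0.20 without control replicate 3.

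Caprin1 (chromosome 2, 103762945 to 103797640) was the only member whose genotypes did not overlap. Its normalized counts were 6529, 9069.9, 10121 and 9363 in control replicates 1, 3, 4 and 5, and 10655, 10704, 12244 and 12376 in mutant replicates 2, 3, 4 and 5. All 4 mutants were above all 4 controls, as were those of 2.76% of all genes tested, and values without overlap in either direction were found in 4.93% of them. The fit put Caprin1 at 0.41 on the log2 scale (standard error 0.19, 95% interval -0.02 to 0.83), or 1.33-fold, below the fold threshold. The unadjusted limma p was 0.06 and the adjusted p 0.58, and an exact permutation test of the log2 means gave p = 0.029 (two-sided), the smallest possible here. Without the library labelled control replicate 1 the log2 fold change was 0.27.

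The libraries differed from each other across several of these genes at once. The library labelled control replicate 1 was the lowest of all 8 for Cyfip1, Cyfip2, Cpeb2 and Caprin1, and the highest for Fxr1. Mutant replicates 4 and 5 were both above mutant replicates 2 and 3 for Fmr1, Fxr2, Cyfip1, Cpeb1, Cpeb4 and Caprin1, which is 6 of the 10. The 10 genes together made up 0.0704% to 0.124% of all normalized counts in controls and 0.117% to 0.161% in mutants, so control replicates 4 and 5 lay close to mutant replicates 2 and 3. The study names 2 sequencing batches, but the sources used here do not say which libraries were in which, so no value within a batch and no fit with a batch term could be given. Without that assignment, the part of batch in the genotype differences and in the pattern among mutants could not be tested.

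Ratios between family members within a library do not depend on how libraries were scaled. All 10 pairs within the fragile X, CYFIP and CPEB families were compared between genotypes with a two-sided exact permutation test over libraries, where the smallest possible p is 0.029. The genotypes overlapped in every pair, and 0 of the 10 had an exact p of at most 0.05. The ratio of Cpeb3 to Cpeb2 was 1.89, -0.59, -1.44 and -0.53 on the log2 scale in control replicates 1, 3, 4 and 5, and -1.44, -1.20, -2.51 and -1.93 in mutant replicates 2, 3, 4 and 5. Only control replicate 4 was as low as the mutants. The difference of the means was -1.60 (exact permutation p = 0.057, Benjamini-Hochberg adjusted p = 0.29 over the 10 pairs), and -0.91 without the library labelled control replicate 1.

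The ratio of Cpeb4 to Cpeb1 was -0.65, -1.09, -0.93 and -0.21 on the log2 scale in controls and 0.85, 0.18, -0.13 and -0.53 in mutants. The 3 highest values were those of mutant replicates 2, 3 and 4. The difference was 0.81 (exact permutation p = 0.057, adjusted p = 0.29). The ratio of Cpeb2 to Cpeb1 differed by 1.93 on the log2 scale (exact permutation p = 0.11), and by 1.19 without the library labelled control replicate 1. The ratio of Cyfip2 to Cyfip1 had a mean of 0.14 ± 0.29 (SD, n = 4) on the log2 scale in controls and -0.03 ± 0.36 (SD, n = 4) in mutants, and that of Fxr2 to Fmr1 was 2.86 ± 0.26 and 2.73 ± 0.34 (SD, n = 4). The ratio of Fxr1 to Fmr1 was -0.99 ± 0.65 and -1.58 ± 0.51 (SD, n = 4), a difference of -0.59 (exact permutation p = 0.17), and of -0.32 without control replicate 3.

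**Figure D3:**
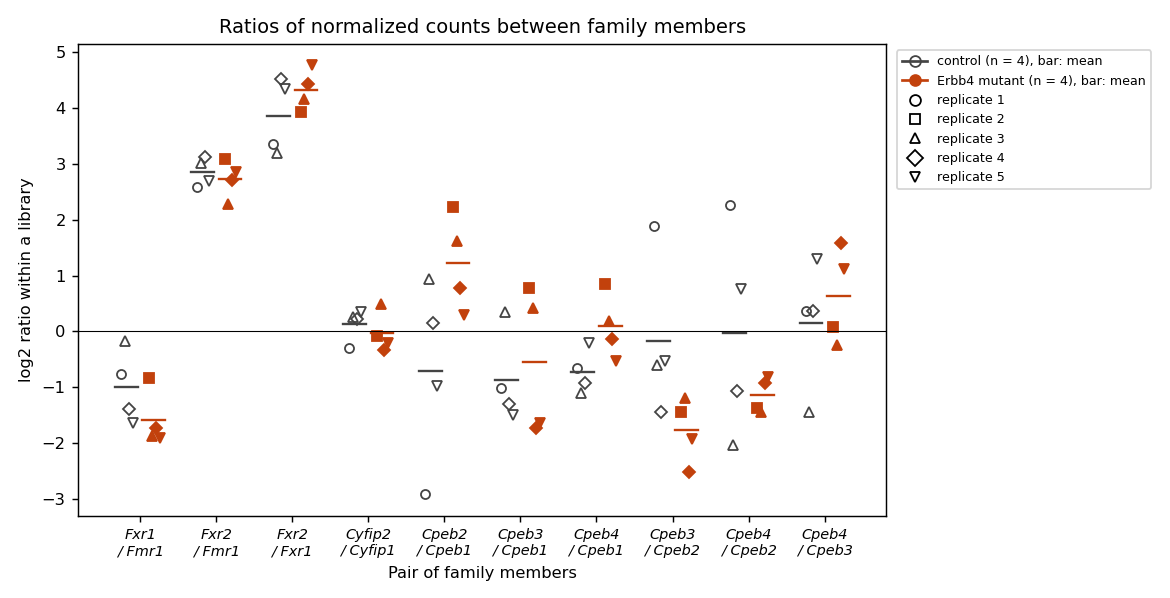
The log2 ratio of normalized counts of each pair of family members in each library, with open grey symbols for controls, filled orange symbols for mutants and a bar at the mean of 4. The genotypes overlap in all 10 pairs, and for Cpeb3 to Cpeb2 the means are -0.17 in controls and -1.77 in mutants.

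The protein partners of the 10 genes were looked at in lists chosen by their known roles. In a list of WAVE complex partners of CYFIP, which also holds Rac1, 2 of 9 genes were called higher and 0 lower (median log2 fold change 0.17). These counts stand beside 3.98% and 3.17% of all genes. Without the library labelled control replicate 1, 0 of the 9 were called higher, with 0.55 for Wasf2 and 0.66 for Nckap1l on the log2 scale. Wasf2, which encodes a WAVE protein, had 4429 ± 1648 normalized counts in controls against 7662 ± 1374 in mutants (SD, n = 4 each), with no overlap and a log2 fold change of 0.87 (standard error 0.31). Nckap1l, which encodes the form of the complex's NAP1 subunit found in blood-lineage cells, rose from 316 ± 114 to 566 ± 120 normalized counts (SD, n = 4), a log2 fold change of 0.89 with a standard error of 0.33. The neuronal forms gave log2 fold changes of 0.33 for Nckap1 and -0.07 for Wasf1, and neither met the thresholds. Of the 10 microglia markers, 0 were called and the median was -0.44, and 4 of 10 endothelial and mural cell markers were called higher and 0 lower (median 0.53). The summed endothelial and mural markers ran from 224300 to 353000 normalized counts in controls and from 326200 to 346900 in mutants, and their part in these results was not tested.

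Partners of CPEB in poly(A) tail control gave 3 of 13 genes called higher and 0 lower, with a median log2 fold change of 0.20, beside the 3.98% and 3.17% of all genes. Without the library labelled control replicate 1, 1 of the 13 (Tent2) was called higher, beside 2.79% of all genes. Tent2, a poly(A) polymerase that CPEB recruits, had 355 ± 36.3 normalized counts in controls against 537 ± 88.4 in mutants (SD, n = 4 each), with no overlap, and its log2 fold change was 0.59 (standard error 0.25). Tob2, which brings the CCR4-NOT deadenylase to CPEB targets, rose likewise without overlap, by 0.68 on the log2 scale (standard error 0.23). Tent4b, a further poly(A) polymerase, gave 0.82 (standard error 0.37) on the same scale, with overlapping groups. Among partners of Caprin1 and FMRP in RNA granules, 0 of 12 were called. Their median was 0.29 and 10 of 12 were above 0, with 0.27 for G3bp1 and 0.02 for G3bp2, the binding partners of Caprin1.

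Of 27 other RNA-binding proteins of neurons, 1 was called higher and 1 lower, and their median of -0.04 was near that of all genes. Elavl3, a neuronal Hu protein that stabilizes mRNA, fell from 2474 ± 928 to 1274 ± 396 normalized counts (SD, n = 4), a log2 fold change of -0.93 with a standard error of 0.30. In these 4 lists of protein partners and other RNA-binding proteins, the 6 genes called higher depended on single libraries. Without the library labelled control replicate 1, Tent2 alone remained called, with a log2 fold change of 0.63. Across all 6 lists, 3 genes were called higher without mutant replicate 4 and 2 without mutant replicate 5. For neither fit was the share over all genes computed.

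**Figure D4:**
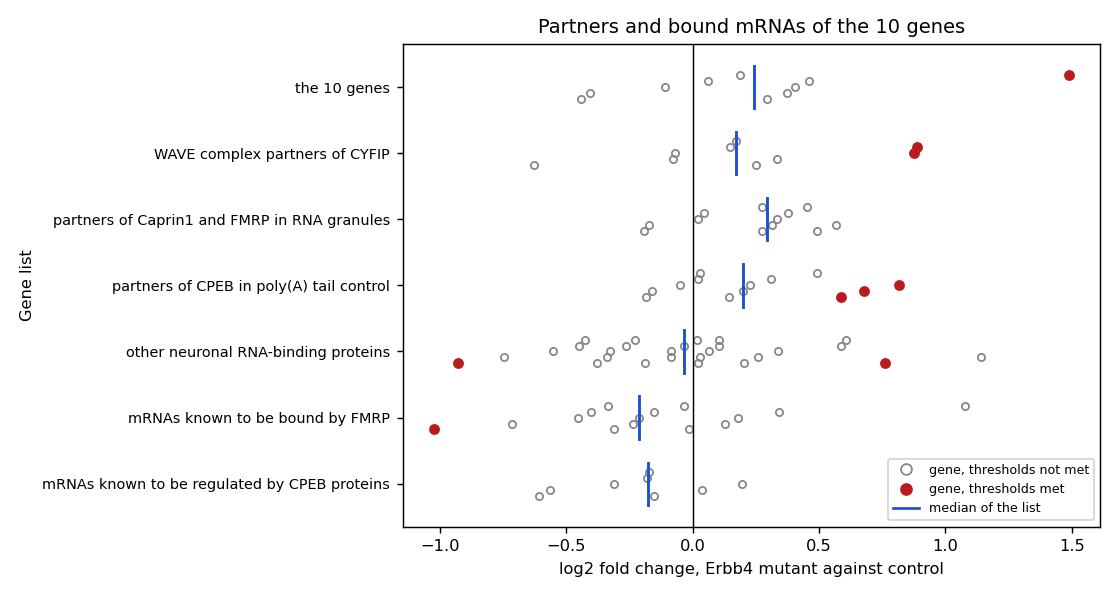
The log2 fold change of every gene (mutant against control) in the 10 genes and in 6 lists of partners and bound mRNAs, with filled red circles for genes that met the thresholds and a blue line at each list's median. Calls in the 2 lists of WAVE and CPEB partners lie on the right, the list of other neuronal RNA-binding proteins has 1 call on each side, and the medians of the lists of bound mRNAs, at -0.21 and -0.18, are below 0.

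A small selection of mRNAs known to be bound by these proteins was also looked at, beside all genes tested, of which 53.4% had log2 fold changes above 0. Of 15 mRNAs bound by FMRP, 11 had log2 fold changes below 0 (median -0.21), 1 was called lower and 0 higher. The called gene was Kcnc1, which encodes the Kv3.1 potassium channel of fast-spiking interneurons, with 15300 ± 7713 normalized counts in controls against 7329 ± 2917 in mutants (SD, n = 4 each), and its log2 fold change was -1.02 (standard error 0.36). Markers of several cell types moved the same way. Of the MGE interneuron markers, 12 of 12 had log2 fold changes below 0, and of the oligodendrocyte markers 10 of 10 did (median -0.59, with 2 called lower). Among microglia markers 9 of 10 were below 0 (median -0.44, with 0 called), and among astrocyte markers 6 of 10 (median -0.11, with 0 called). Excitatory neuron markers split 5 and 5, and 8 of 10 endothelial and mural markers were above 0. The summed oligodendrocyte markers ran from 231400 to 676100 normalized counts in controls and from 204600 to 288900 in mutants, and none was at 0. The part of these cell types in the lower values of Kcnc1, Elavl3 and the bound mRNAs was not tested. Map1b, a classical FMRP target, was at -0.21 (standard error 0.31) on the log2 scale, and Arc at -0.04 (standard error 0.39). Of 8 mRNAs regulated by CPEB proteins, 0 were called and 6 were below 0 (median -0.18). Camk2a and Dlg4 are in both this list and that of FMRP, so the counts of the lists are not independent. Camk2a, in which CPEB elements were studied in dendrites, was at -0.15 (standard error 0.19). Without control replicate 5, 6 genes of the 6 lists were called lower in place of 2, and the share over all genes was not computed for that fit. At an adjusted p under 0.05 from limma, 0 genes of any list passed, while 3 lower and 6 higher genes had an unadjusted p ≤ 0.05.

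Reads could be shared with neighbours in a few places, since the sources do not say that counting used strand. In GENCODE M21, protein-coding genes on the opposite strand overlap Fxr1 (Dnajc19), Cyfip1 (Nipa2), Cyfip2 (Fndc9) and Cpeb3 (March5), and an antisense RNA overlaps Cpeb2 and another Cpeb3. Further unclassified genes overlap Cpeb2 on its own strand. Whether they took part in the values above was not tested.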

How the data were processed

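The authors mapped paired-end reads on mm10 with STAR 2.4.0, took the reads in the constitutive parts of each Mouse Fast DB gene and scaled each library by its DESeq2 size factor. What they deposited is this signal, called normalized counts here, separately for 4 control and 4 mutant libraries. In every library 100% of values were a whole number of steps (within 0.1), 1 step being the value of 1 read, and this gave the read totals. The fewest reads of a member in any library were 35 (Cpeb2).

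The test was limma 3.58.1 (lmFit, then eBayes with trend) in R 4.3.3, on the genes whose mean reached 10 in either genotype, using log2(normalized count + 1), which understates the change of low genes, with no covariate and Benjamini-Hochberg adjustment over all 31171 genes. Calls used the study's thresholds, not its filter against intergenic background. Exact permutation tests enumerated all divisions of the 8 libraries. The procedure was tested on simulated data. Transcript sequences came from GENCODE M21.

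Members and gene lists were chosen with earlier results of these data known. Named genes were all members, Erbb4, Tsc2, Rpl22 and Lhx6 as checks of the labels, and up to 4 called genes of each list. Other genes named without a call were added after their values were seen. The values of 1 called gene are not reported here.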

Additional observations from a re-analysis of the deposited data

Results flagged for a closer look

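Of 40 groups of 4 values looked at, 20 of normalized counts and 20 of log2 ratios between family members, 1 had a value far from the other 3, where chance gives about 1 in 20 groups, or 2 here. It was the ratio of Fxr1 to Fmr1 in mutant replicate 2, at -0.83 on the log2 scale, against -1.90 to -1.73 in the other mutants. Mutant replicate 2 had 715 normalized counts of Fmr1, the lowest of the mutants, and 402 of Fxr1, within their range. No explanation was tested for it.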

How the results depend on the processing

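With all 8 libraries, 1 of the 10 genes (Cpeb2) was called higher and 0 lower, and 0 were lower under any alternative. The number called higher was 0 with a pseudocount of 0.1, with no filter on low values and at an adjusted p under 0.05, and 2 with quantile normalization, which added Cyfip1. Across fits that each left out 1 library it ran from 0 to 1. The cause of these changes was not tested, except that Cpeb2 lies just past the threshold, with unadjusted limma p-values of 0.053 at a pseudocount of 0.1 and 0.05001 without a filter. Upper-quartile scaling, an alternative chosen after seeing the data, gave 1 and moved the median log2 fold change of all genes to 0.11.

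Among the 6 lists, 2 genes were called lower and 6 higher. Library weights gave 6 lower (5.24% of all genes), and an adjusted p under 0.05 gave 0 lower and 0 higher. Leaving out 1 library gave 2 to 6 lower and 1 to 6 higher. Shares over all genes were computed only for the fit without control replicate 1. Leaving out 1 library turned the sign of the log2 fold change of Fmr1 (lowest -0.009, highest 0.44), Fxr2 (lowest -0.0816, highest 0.19) and Cpeb3 (lowest -0.33, highest 0.24), none of which was called in any fit.

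The genotypes share replicate numbers 3, 4 and 5, which mark no shared animal. A fit with a replicate block compares libraries of the same number. Control replicate 1 and mutant replicate 2 have no counterpart of their number, so in that fit they add nothing to the genotype difference. How far libraries of 1 number lay from their genotype means correlated at 0.08 to 0.10, and other pairings at -0.12 to 0.08, and control replicate 5 correlated best with mutant replicate 4. Mutant replicates 4 and 5 correlated at 0.08 to 0.10 with control replicates 4 and 5. With control replicates 1 and 3 they correlated at -0.12 to -0.03. Mutant replicates 2 and 3 correlated at 0.02 to 0.10 with control replicates 1 and 3. With control replicates 4 and 5 they correlated at -0.08 to -0.06. Whether this pattern follows the sequencing batches was not tested. With the replicate block, 0 of the 10 genes were called higher (Cpeb2 log2 fold change 0.73), beside 4.64% of all genes. Fmr1 (0.51), Cyfip1 (0.41) and Caprin1 (0.31) had an unadjusted limma p of at most 0.05 in place of Cpeb2 but stayed under 1.5-fold. Their limma adjusted p-values were 0.33, 0.26 and 0.32. For this fit the share of all genes at that p without a fold threshold was not computed. In the same fit 8 list genes were called lower (5.51% of all genes). Of the 10 ratios, 2 had an unadjusted limma p of at most 0.05 (Cpeb3 to Cpeb2 and Cpeb2 to Cpeb1). Their limma adjusted p-values over the 10 pairs were 0.14 and 0.16. The ratio of Cpeb3 to Cpeb1 then differed by -0.16 in place of 0.33.

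For ratios without 1 library, values alone were compared and no exact p is given. Alternatives based on counts (edgeR, DESeq2, TMM) were not run, because control replicate 4 and mutant replicate 5, where 1 read is worth close to 1 normalized count, did not meet the criterion set for treating scaled values as reads.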
